A study of Mus musculus with 13 samples.

Results

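The lysosome and autophagy genes described here are 41 mouse genes chosen by symbol, and all 41 were found on both array types of the study. They cover 7 lysosomal membrane proteins, 9 cathepsins and other peptidases, 11 glycosidases, lipid hydrolases and their helper proteins, 3 subunits of the proton pump, 2 transcription factors, 8 genes of autophagy and 1 adaptor subunit. Each gene is represented by the probe set with the highest mean on its array type, out of 18194 genes on the Mouse Genome 430 2.0 array and 19938 on the Gene 1.0 ST array. After removal of the 40% of genes with the lowest mean values, 38 members were tested on the first type, among 10916 genes, and 37 on the second, among 11963. Ctsh, Ctsl and Hexa were below that limit on both types and Wipi1 was below it on Gene 1.0 ST.

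The lysosome is the acidic compartment in which cells break down proteins, glycans and lipids, and autophagy is the route by which a cell's own cytoplasm is wrapped in membrane and delivered there. Proton pumps in the lysosomal membrane keep the lumen acidic, hydrolases such as the cathepsins work in it, and membrane transporters return the products to the cytosol. Tfeb and Tfe3 are related transcription factors that bind an E-box motif in many lysosomal and autophagy genes. In B-lineage cells the lysosomal peptidases also take part in antigen processing.

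All arrays came from B3, a mouse pre-B cell line, transduced with MSCV retroviral vectors that carry GFP behind an internal ribosome entry site. In the first design, cells with HA-tagged wild-type Ikaros (HA-Ikaros-IRES-GFP, 2 arrays) were set against cells with HA-tagged 159A (HA-159A Ikaros-IRES-GFP, 2 arrays), an Ikaros mutant that cannot bind DNA, both collected 48 h after infection. In the second design, HA-Ikaros was fused to ERt2, an estrogen receptor hormone-binding domain that responds to 4-hydroxytamoxifen. Cells with HA-Ikaros-ERt2-IRES-GFP were exposed to 4-hydroxytamoxifen for 2 h (3 arrays) or 6 h (3 arrays), and cells with the vector ERt2-IRES-GFP were exposed for 6 h (3 arrays). No vector array of 2 h and no Ikaros-ERt2 array without 4-hydroxytamoxifen was among those used here, so a difference between the lines that was there before exposure cannot be told apart from an effect of exposure. The vector drives Ikaros from the viral promoter and not from the endogenous Ikzf1 locus.

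Ikzf1, which encodes Ikaros, was at 13.2 to 13.4 log2 units on the Ikaros-ERt2 arrays and at 9.16 to 9.39 on the vector-ERt2 arrays. For replicate 1 of the vector group, the title names the vector and another label field the inducible Ikaros construct, and its Ikzf1 value was 9.16. At 48 h, where both constructs encode a form of Ikaros, Ikzf1 was at 12.00 and 12.08 with Ikaros and at 11.82 and 11.61 with 159A. On the 430 2.0 arrays 36.7% of all values lie at a floor, the lowest value of 2.19. None of the 10 pre-B markers on that type was within 1 log2 unit of it on every array. Their summed level was 16.1 log2 units with Ikaros and 16.2 to 16.3 with 159A. At 48 h, 4 of these 10 were called higher and 3 lower, with changes from -5.92 to 3.37. At 6 h, 4 of 8 pre-B markers were called lower and 0 higher (median change -0.48), and the summed level was 13.4 to 13.6 against 14.0 to 14.1 with vector and 13.8 to 13.9 at 2 h. The part of these shifts in the results below was not tested. Of 11 myeloid markers on the 430 2.0 arrays, 9 were within 1 log2 unit of the floor on every array. The summed level of the list was 5.98 log2 units on both Ikaros arrays and 6.19 and 6.38 on the 159A arrays. On Gene 1.0 ST the myeloid sum was 8.13 to 8.30 over the 9 arrays. None of the tested markers of myeloid, T, erythroid or fibroblast cells was called in any comparison. Tested were 5, 2, 1 and 1 of them at 48 h, and 2, 1, 1 and 3 on Gene 1.0 ST. The others on the arrays were below the filter on low genes. The lowest myeloid change at 48 h was -1.74. The arrays were made from whole cultures, so more RNA per cell and more cells of one kind cannot be told apart.

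At 48 h, 8 of 38 members were higher with Ikaros than with 159A and 0 were lower, at an adjusted p under 0.05 (limma, Benjamini-Hochberg over all genes tested). Over all genes, 14.8% were called in either direction and 6.38% were called higher, against 21.1% of the members. They were the transporter gene Slc46a3, the adaptor subunit Ap3m2, the peptidases Ctss, Ctsa and Tpp1, the sialidase Neu1, the cholesterol carrier Npc2 and the autophagosome protein Map1lc3b. The log2 change was positive for 30 of 38 members, or 78.9%, and for 5457 of the 10916 genes, and the median was 0.60 over the members and 0 over all genes. Both Ikaros arrays lay above both 159A arrays for 21 members, against 27.7% of all genes, and below them for 4, against 30%. Slc46a3 and Ap3m2 stood in the list with their changes known, and without them 6 of 36 members were called. Leaving out any 1 of the 4 arrays left 0 genes called in the whole table by limma, with 2165 to 3668 genes at an unadjusted p under 0.05. With no filter on low genes the call remained for Slc46a3 (adjusted p = 0.0445) and for none of the other members.

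At 6 h, 5 of 37 members were higher in Ikaros-ERt2 than in vector-ERt2 cells and 0 were lower. Over all genes 5.78% were called in either direction and 2.58% higher, against 13.5% of the members. The 5 were Smpd1, Tfeb, Ap3m2, Slc46a3 and Sqstm1, with changes of 1.27- to 1.62-fold. The log2 change was positive for 28 of 37 members, and the median was 0.14 over the members and -0.00016 over all genes. All 3 arrays of 6 h lay above all 3 vector arrays for 13 members, against 11% of all genes. They lay below them for 2, against 10.3%. Without Slc46a3 and Ap3m2 the count was 3 of 35. It was 3 when Ikaros-ERt2 6 h replicate 1 or 2 or vector replicate 2 was left out, and 4 when vector replicate 1 or 3 was. The calls lost there were those of Smpd1 and Sqstm1.

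At 2 h, 0 of 37 members were called by limma, while 1.86% of all genes were. An unadjusted p under 0.05 was found for 5 members, and for 1691 of the 11963 genes. The smallest adjusted p-values were those of Tfeb (0.0605) and Ctss (0.0611). All 3 arrays of 2 h lay above the 3 vector arrays for 8 members and below them for 0. Of all genes, 9.23% were apart and higher and 9.4% apart and lower. In the fit with the replicate number as a block, Ctss was called with an adjusted p of 0.00907 and Tfeb with one of 0.0265. That fit pairs the same-numbered arrays of all 3 groups, those of 6 h included, and the labels do not state a pairing. Between 6 h and 2 h of the same line, Slc46a3 and Ap3m2 were called higher, 2 of 37 members, while 0.903% of all genes were called in either direction and 0.376% higher. The 2 h and 6 h comparisons share the vector arrays, so a vector array that is low or high moves both.

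**Figure D1:**
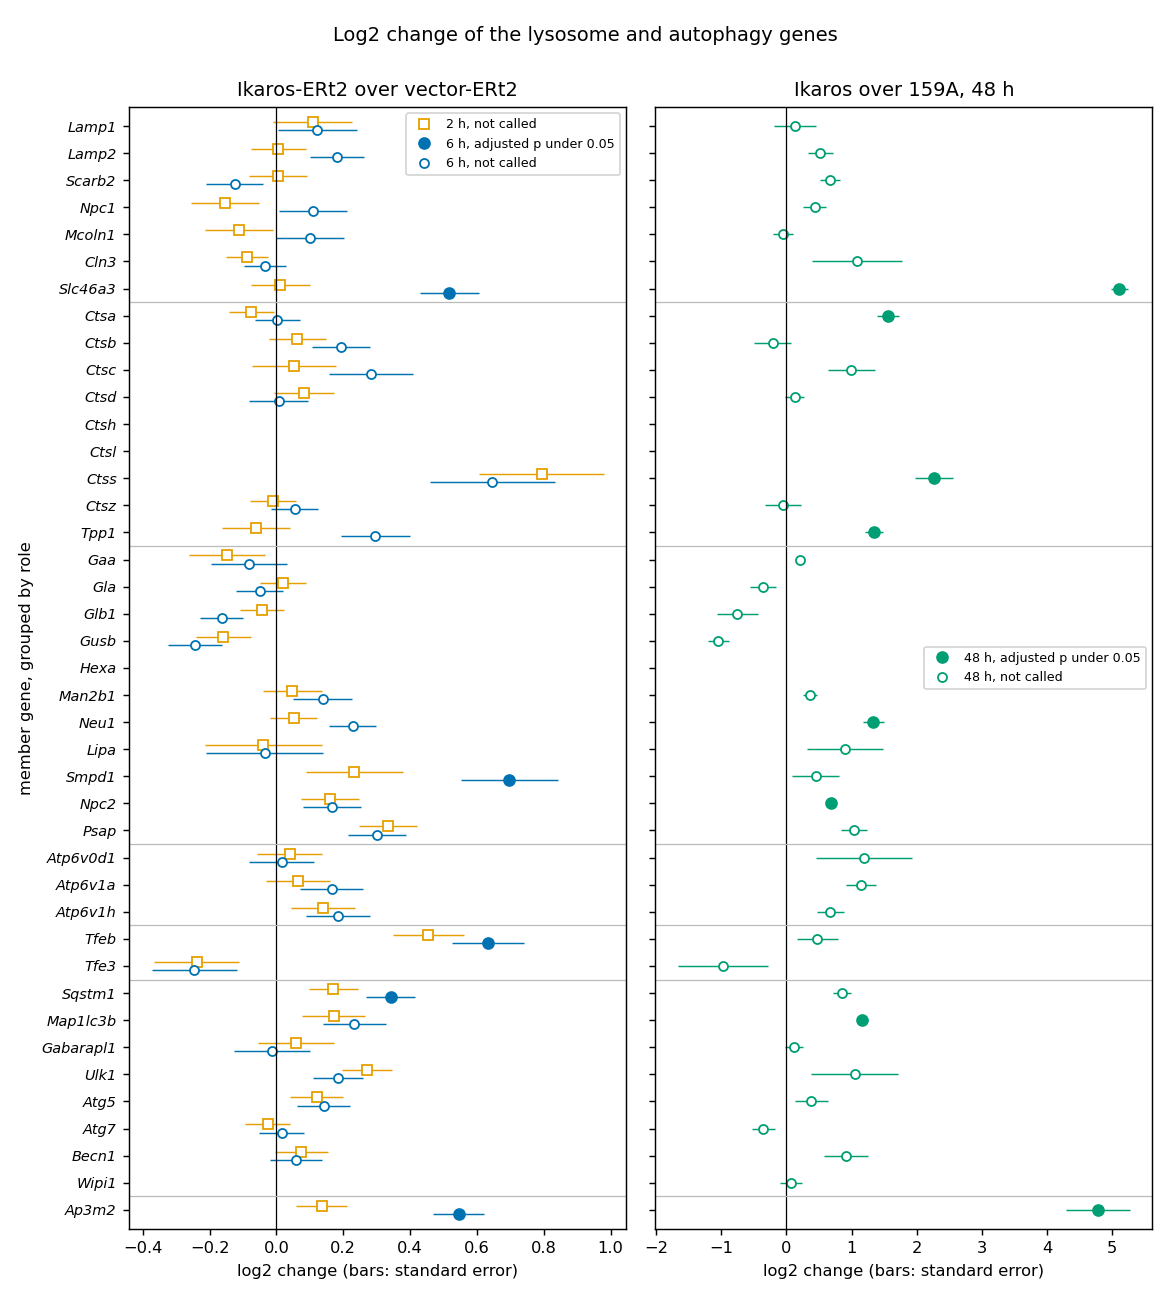
Log2 change (x axis) of each member gene (y axis, in blocks by role), with bars for the standard error: left, Ikaros-ERt2 over vector-ERt2 at 2 h (squares) and 6 h (circles); right, Ikaros over 159A at 48 h. Filled circles passed an adjusted p of 0.05, which 5 members did at 6 h and 8 at 48 h, all of them right of 0; genes without a symbol were not tested. The axes of the panels differ in length.

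Tfeb is a master regulator of lysosome formation. Its value was 7.13, 7.16 and 6.93 on the vector arrays, 7.47, 7.63 and 7.48 at 2 h, and 7.84, 7.81 and 7.47 at 6 h. Every Ikaros-ERt2 array lay above every vector array, and replicate 3 of 6 h lay with the arrays of 2 h. The log2 change was 0.45 ± 0.11 (SE) at 2 h, with an adjusted p of 0.0605 in the fit without pairing and of 0.0265 with same-numbered arrays paired, and 0.63 ± 0.11 at 6 h, a 1.55-fold rise (adjusted p = 0.00562). From 2 h to 6 h it was 0.18 ± 0.11 (adjusted p = 0.511). At 48 h, Tfeb was at 7.97 and 7.28 with Ikaros and at 7.28 and 7.03 with 159A, so that the groups met (0.47 ± 0.31, adjusted p = 0.418). Its relative Tfe3 did not pass in any comparison and had a negative estimate in each. Tfe3 was at 5.71, 5.75 and 5.61 at 6 h, at 5.71, 5.70 and 5.68 at 2 h, and at 5.80, 5.71 and 6.30 on the vector arrays, of which replicate 3 was the highest (-0.25 ± 0.13 at 6 h, adjusted p = 0.365). At 48 h it was at 6.50 and 5.10 with Ikaros and at 7.19 and 6.36 with 159A, with an SE of 0.69 on a change of -0.98.

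The 250 bases before the annotated start of Tfeb are shown because Tfeb had the smallest 6 h adjusted p among the called members whose promoter is in the RefSeq table used here (GRCm38.p6); its window is chr17:47736787-47737036, plus strand. Capitals mark GGGAA or its reverse complement TTCCC, the core letters of the motif bound by Ikaros, and CACGTG, the E-box core bound by Tfeb and Tfe3. Tfeb has 3 start windows in the table, and the one with most matches is given.
Tfeb: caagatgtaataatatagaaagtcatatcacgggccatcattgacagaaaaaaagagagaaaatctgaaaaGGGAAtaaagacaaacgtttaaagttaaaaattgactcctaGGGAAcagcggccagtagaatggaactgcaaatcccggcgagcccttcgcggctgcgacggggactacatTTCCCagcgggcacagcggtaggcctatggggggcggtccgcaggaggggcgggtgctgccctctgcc
This stretch held 3 matches to GGGAA on either strand and 0 to CACGTG.

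Slc46a3 encodes a transporter of the lysosomal membrane and Ap3m2 a subunit of the AP-3 adaptor, which sorts membrane proteins towards lysosomes. They had the largest changes among the members at 48 h, and Ap3m2 had the smallest adjusted p among them at 6 h. Slc46a3 was at 9.44 and 9.15 with Ikaros and at 4.17 and 4.20 with 159A, a 34.5-fold difference (5.11 ± 0.13, adjusted p = 0.0180). Ap3m2 was at 10.23 and 9.51 with Ikaros and at 5.54 and 4.63 with 159A, a 27.5-fold difference (4.78 ± 0.49, adjusted p = 0.0343). The gap between the groups was in both genes several times the distance between replicates, and the 159A arrays lay above the limit of 1 log2 unit over the floor. The 2 other probe sets of Ap3m2 above that limit gave 2.73 and 2.09, and the mean of its probe sets changed by 2.40 (adjusted p = 0.0454).

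In the inducible line both genes rose between 2 h and 6 h. Slc46a3 was at 6.15, 6.37 and 6.23 on the vector arrays, at 6.29, 6.25 and 6.24 at 2 h, and at 6.82, 6.88 and 6.59 at 6 h. The arrays of 2 h lay among the vector arrays and those of 6 h above all of them. The change was 0.01 ± 0.09 at 2 h, 0.52 ± 0.09 at 6 h (1.43-fold, adjusted p = 0.00658) and 0.51 ± 0.09 from 2 h to 6 h (adjusted p = 0.0300). Ap3m2 was at 6.71, 6.71 and 6.74 on the vector arrays, at 6.87, 6.77 and 6.92 at 2 h, and at 7.15, 7.37 and 7.27 at 6 h. Its 3 groups did not overlap. The change was 0.14 ± 0.08 at 2 h, 0.55 ± 0.08 at 6 h (1.46-fold, adjusted p = 0.00193) and 0.41 ± 0.08 from 2 h to 6 h (adjusted p = 0.0356). The change from vector to 6 h kept its call under every alternative run for these genes, and the change from 2 h to 6 h was lost in 9 of 14 alternatives for Slc46a3 and in 11 of 15 for Ap3m2, among them the omission of any of the 6 arrays compared for Ap3m2 and of any but replicate 3 of 6 h for Slc46a3, with adjusted p-values up to 0.157 and 0.166.

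The stretch before the start of Slc46a3 (chr5:147894816-147895065, minus strand, GRCm38.p6, RefSeq) is shown with the same capitals, since it is the member with the largest 48 h difference.
Slc46a3: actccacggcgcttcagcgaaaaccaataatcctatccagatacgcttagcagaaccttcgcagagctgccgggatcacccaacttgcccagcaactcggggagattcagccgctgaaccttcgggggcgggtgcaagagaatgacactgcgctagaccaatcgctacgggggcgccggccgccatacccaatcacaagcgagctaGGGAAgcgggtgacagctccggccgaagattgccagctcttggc
It held 1 match to GGGAA and 0 to CACGTG.

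**Figure D2:**
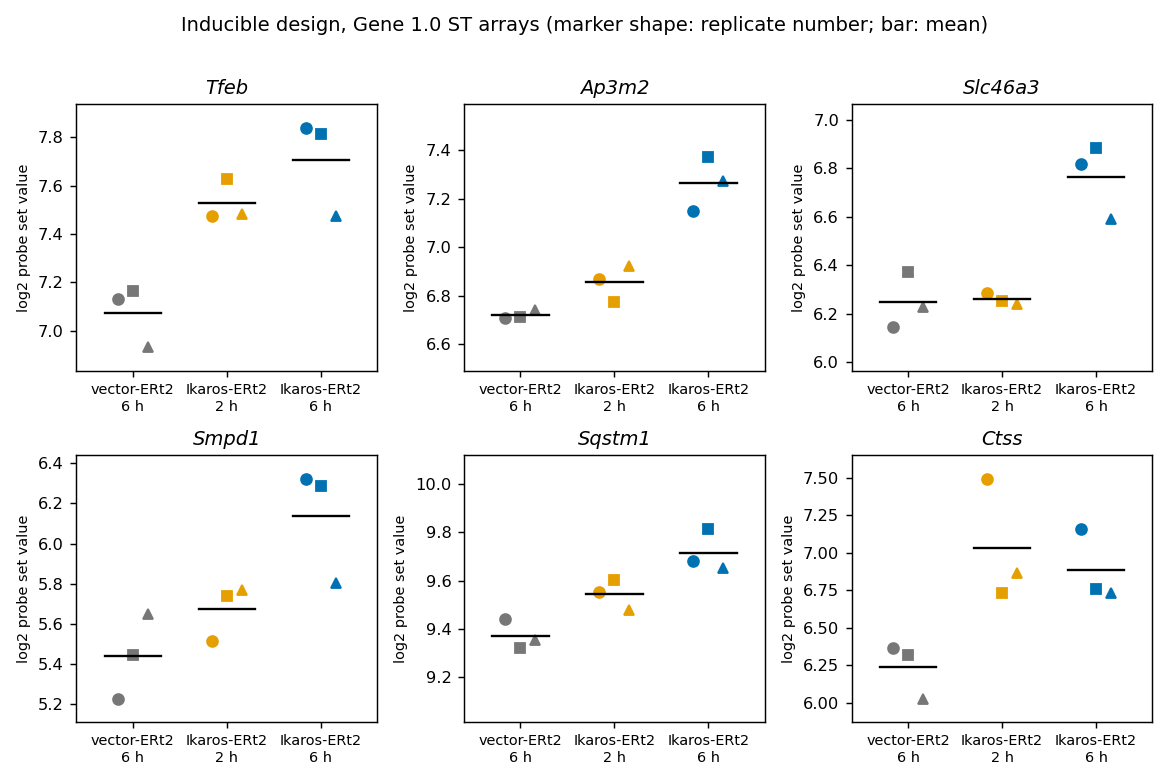
Log2 probe set value (y axis) of 6 members on each Gene 1.0 ST array, by group (x axis); marker shapes give the replicate number and bars the group mean, and each panel has its own y range. Slc46a3 at 2 h lies among the vector arrays and rises at 6 h, Tfeb and Ctss lie above the vector arrays at both times, and Smpd1 replicate 3 of 6 h lies apart from the other two.

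The other lysosomal membrane proteins were not called. Lamp1, an abundant glycoprotein of this membrane, was at 12.87 and 12.18 with Ikaros and at 12.55 and 12.24 with 159A, which overlap (0.13 ± 0.32, adjusted p = 0.837). In the inducible line it was at 9.93, 9.95 and 10.10 at 6 h, at 9.90, 9.91 and 10.13 at 2 h, and at 9.73, 9.73 and 10.15 with vector, where replicate 3 was the highest. Cln3, a membrane protein lost in a childhood storage disease of neurons, was at 7.59 and 6.10 with Ikaros and at 6.10 and 5.43 with 159A. The lower Ikaros array and the higher 159A array were level to the second decimal, and the change was 1.08 ± 0.69 (adjusted p = 0.401). Lamp2, Scarb2, Npc1 and Mcoln1 ranged from -0.05 to 0.67 at 48 h and from -0.13 to 0.18 at 6 h. As the mean of its probe sets, Lamp2 changed by 0.77 at 48 h and was called (limma, adjusted p = 0.0493). In all, 6 of 7 membrane genes had a positive estimate at 48 h and 5 of 7 at 6 h.

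Among the 7 peptidases tested, 3 were higher at 48 h and all 7 had a positive estimate at 6 h, with a median of 0.19 and none called. Ctss, cathepsin S, which trims the invariant chain of MHC class II in antigen-presenting cells, was at 13.54 and 12.87 with Ikaros and at 10.90 and 10.98 with 159A. That is a 4.81-fold difference (2.27 ± 0.29, adjusted p = 0.0436), and the lower Ikaros array lay well above both 159A arrays. In the inducible line Ctss was at 7.49, 6.73 and 6.86 at 2 h, at 7.16, 6.76 and 6.73 at 6 h, and at 6.36, 6.32 and 6.03 with vector. Replicate 1 was the highest in each of the 3 groups, and no Ikaros-ERt2 array reached down to a vector array. The changes were 0.79 ± 0.19 at 2 h (adjusted p = 0.0611, and 0.00907 with same-numbered arrays paired) and 0.65 ± 0.19 at 6 h (adjusted p = 0.0748), the first of them the largest estimate of any member at 2 h. The 6 h change was called with same-numbered arrays paired (limma, adjusted p = 0.0125) and with quantile normalization (adjusted p = 0.0493). It was also called with only the compared groups in the fit (adjusted p = 0.0460).

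Ctsa, cathepsin A, which also protects the sialidase Neu1 and the galactosidase Glb1 in a complex, was at 12.36 and 12.06 with Ikaros and at 10.77 and 10.53 with 159A (1.56 ± 0.17, 2.96-fold, adjusted p = 0.0365). At 6 h it was at 8.45, 8.48 and 8.37 against 8.39, 8.39 and 8.51 with vector, a change of 0.0022 ± 0.068. The 48 h groups were clearly apart and the 6 h groups fully mixed. A second, dimmer probe set of Ctsa changed by 0.06 at 48 h, and the mean of both changed by 0.81 (adjusted p = 0.0472). Tpp1, a peptidase that removes tripeptides from the ends of proteins, was at 11.40 and 11.11 with Ikaros and at 9.93 and 9.89 with 159A (1.35 ± 0.13, 2.55-fold, adjusted p = 0.0337). It was at 7.90, 7.67 and 7.57 at 6 h, at 7.35, 7.21 and 7.50 at 2 h, and at 7.45, 7.31 and 7.49 with vector, so that the arrays of 6 h lay above both other groups (0.30 ± 0.10 over vector, adjusted p = 0.139).

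The stretch before one of 2 annotated starts of Ctsa (chr2:164833523-164833772, plus strand, GRCm38.p6, RefSeq) is shown because Ctsa was the called member with a CACGTG match in its window.
Ctsa: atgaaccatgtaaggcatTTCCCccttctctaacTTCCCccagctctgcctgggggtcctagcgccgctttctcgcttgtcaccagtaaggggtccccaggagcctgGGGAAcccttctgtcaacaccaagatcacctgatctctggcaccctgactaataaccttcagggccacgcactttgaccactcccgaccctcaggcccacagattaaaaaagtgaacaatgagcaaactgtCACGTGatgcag
It held 1 match to CACGTG and 3 to GGGAA on either strand.

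Ctsc, a peptidase that activates the serine proteases of blood cell granules, was at 14.35 and 13.54 with Ikaros and at 13.08 and 12.82 with 159A (0.99 ± 0.36, adjusted p = 0.198). At 6 h it was at 9.53, 9.67 and 9.33 against 9.12, 9.27 and 9.29. The groups were apart in both designs, and neither difference passed with the probe set used. Its other probe sets at 48 h gave 2.71 and 2.94. As the mean of its probe sets the 48 h change was 2.22 and was called (limma, adjusted p = 0.0403). Ctsd, cathepsin D, a major lysosomal aspartic protease, was at 10.66 and 10.37 with Ikaros and at 10.46 and 10.32 with 159A. On Gene 1.0 ST it was at 8.90, 9.05 and 8.70 at 6 h, at 8.90, 9.05 and 8.92 at 2 h, and at 8.90, 8.85 and 8.87 with vector. Its groups overlapped at each time. Ctsb, the cysteine protease cathepsin B, was at 8.41, 8.66 and 8.49 at 6 h and at 8.39, 8.38 and 8.41 at 2 h, with vector at 8.42, 8.18 and 8.39, and its 48 h estimate was -0.21 ± 0.28. Ctsh and Ctsl lay at the floor on the 430 2.0 arrays, at 2.19 and 2.20, and were not tested.

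Neu1 and Npc2 were the members called at 48 h among the glycosidases, lipid hydrolases and helpers, and Smpd1 was the one called at 6 h. Neu1, which removes sialic acid from glycans, was at 8.17 and 8.13 with Ikaros and at 6.99 and 6.64 with 159A (1.34 ± 0.16, 2.52-fold, adjusted p = 0.0390). Npc2, a soluble carrier that hands cholesterol to the membrane protein Npc1, was at 14.35 and 14.23 with Ikaros and at 13.60 and 13.61 with 159A (0.68 ± 0.07, 1.61-fold, adjusted p = 0.0352). In both genes the replicates lay much closer together than the groups. As the mean of a gene's probe sets the change was 0.80 for Neu1 (adjusted p = 0.0213) and 1.29 for Npc2 (adjusted p = 0.0409). At 6 h Neu1 was at 7.40, 7.31 and 7.50 against 7.19, 7.12 and 7.22 with vector and 7.22, 7.21 and 7.26 at 2 h, apart from both but not called (0.23 ± 0.07 over vector, adjusted p = 0.0941). Npc2 was at 9.09, 9.03 and 8.78 at 6 h, at 9.03, 8.93 and 8.93 at 2 h and at 8.85, 8.82 and 8.74 with vector, where the arrays of 2 h but not those of 6 h were apart from vector.

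Smpd1, acid sphingomyelinase, which splits sphingomyelin into ceramide and phosphocholine, was at 6.32, 6.29 and 5.81 at 6 h, at 5.52, 5.74 and 5.77 at 2 h, and at 5.23, 5.45 and 5.65 with vector. Its change of 0.70 ± 0.15 at 6 h was the largest of any member there (1.62-fold, adjusted p = 0.0176). Replicate 3 of 6 h was only slightly above the highest vector array. The call was lost on leaving out replicate 1 of 6 h (adjusted p = 0.0835), replicate 2 of 6 h (adjusted p = 0.0603), vector replicate 1 (adjusted p = 0.0885) or vector replicate 2 (adjusted p = 0.0677). At 48 h Smpd1 was at 4.71 and 3.88 with Ikaros and at 3.87 and 3.83 with 159A, where Ikaros replicate 2 lay level with 159A. The stretch before the start of Smpd1 (chr7:105554110-105554359, plus strand, GRCm38.p6, RefSeq) is shown as that of the member with the largest 6 h change, and it has no capitals because neither motif was matched.
Smpd1: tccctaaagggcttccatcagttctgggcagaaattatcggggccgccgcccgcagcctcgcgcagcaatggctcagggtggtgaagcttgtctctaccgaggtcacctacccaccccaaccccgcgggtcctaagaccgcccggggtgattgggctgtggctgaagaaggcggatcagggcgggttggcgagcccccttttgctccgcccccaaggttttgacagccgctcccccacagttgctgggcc

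Psap, the precursor of the saposins that present lipids to hydrolases, was at 12.46 and 12.33 with Ikaros and at 11.57 and 11.14 with 159A (1.04 ± 0.20, adjusted p = 0.0741). Its 48 h change was called with a 60% filter on low genes (limma, adjusted p = 0.0412) and with quantile normalization (adjusted p = 0.0422). Quantile normalization also gave a call for Psap at 6 h (adjusted p = 0.0350). In the inducible line it was at 10.68, 10.57 and 10.37 at 2 h, at 10.61, 10.49 and 10.42 at 6 h, and at 10.19, 10.21 and 10.22 with vector. The vector arrays lay close together and every Ikaros-ERt2 array lay above them, with changes of 0.33 ± 0.09 at 2 h (adjusted p = 0.0881) and 0.30 ± 0.09 at 6 h (adjusted p = 0.0745). Gusb, which cleaves glucuronic acid from glycosaminoglycans, had the lowest estimate of all members at 48 h. It was at 9.90 and 9.67 with Ikaros and at 10.98 and 10.68 with 159A (-1.04 ± 0.17, adjusted p = 0.0588). Scaling each 48 h array to the same median turned this into a call (adjusted p = 0.0481), so that 8 members were higher and 1 lower, and so did a 60% filter on low genes (adjusted p = 0.0353) and quantile normalization (adjusted p = 0.0388). At 6 h Gusb was at 8.49, 8.58 and 8.42 against 8.78, 8.62 and 8.83 with vector and 8.67, 8.60 and 8.48 at 2 h. The arrays of 6 h lay below those of vector (-0.24 ± 0.08, adjusted p = 0.124). Glb1, the lysosomal beta-galactosidase, was likewise apart and lower in both designs without a call, at 8.70 and 8.03 against 9.26 and 8.99 at 48 h (-0.75 ± 0.31), and at 7.70, 7.70 and 7.63 at 6 h against 7.79, 7.87 and 7.86 with vector and 7.83, 7.73 and 7.83 at 2 h (-0.16 ± 0.06 over vector). Gaa, Gla, Lipa and Man2b1 ranged from -0.36 to 0.90 at 48 h and from -0.08 to 0.14 at 6 h, and both 48 h groups of Gaa were within 1 log2 unit of the floor.

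**Figure D3:**
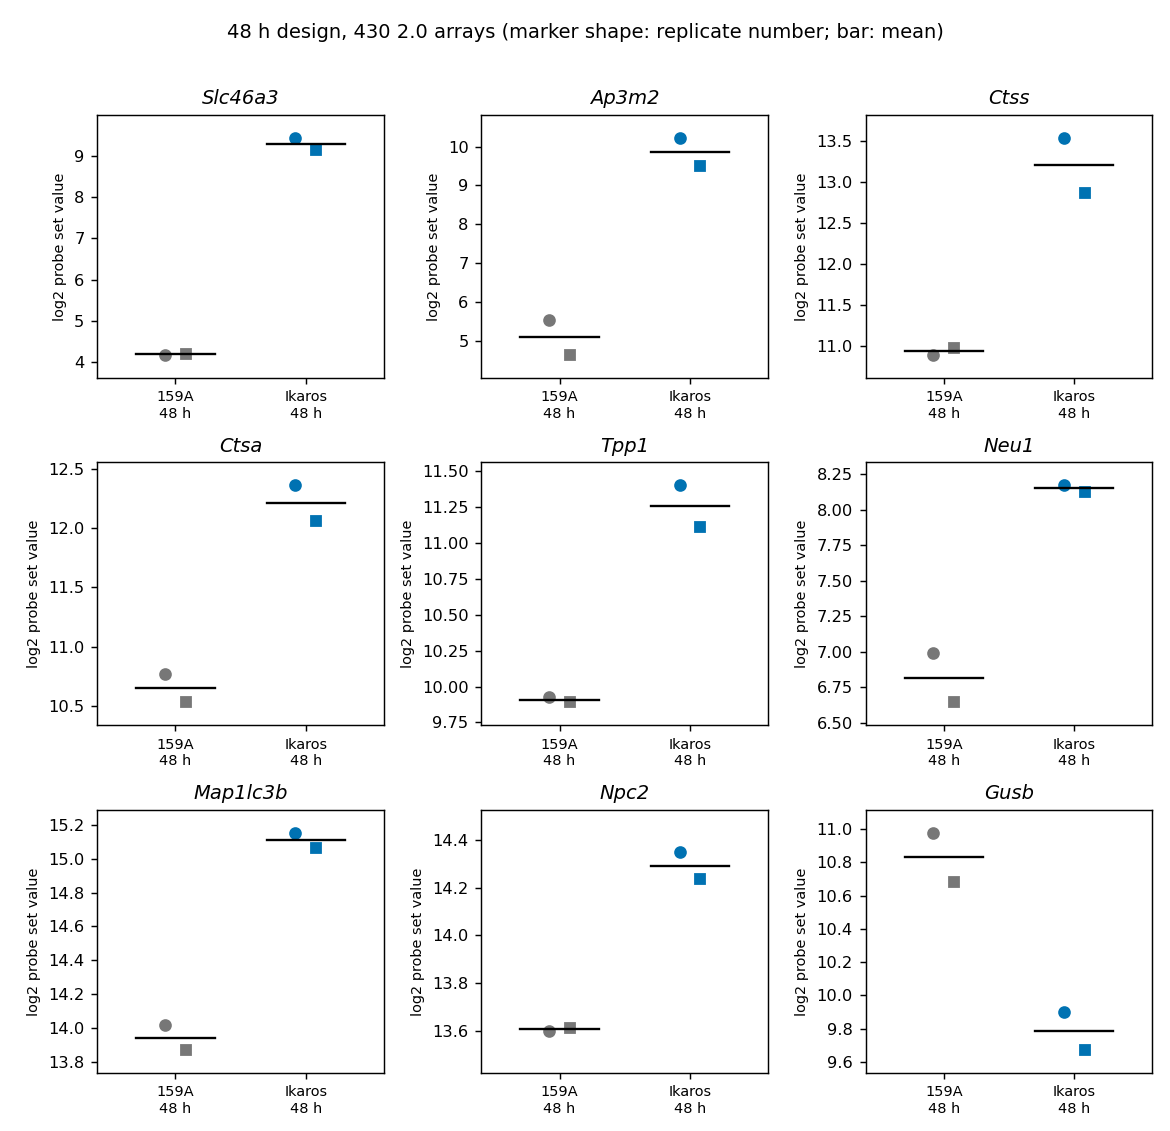
Log2 probe set value (y axis) of 9 members on each 430 2.0 array, 159A against Ikaros at 48 h (x axis); marker shapes give the replicate number and bars the group mean, and each panel has its own y range. The first 8 panels hold the called members, whose Ikaros arrays lie above both 159A arrays; in the last, Gusb, they lie below, and that difference was not called.

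None of the 3 proton pump subunits was called. Atp6v1a, the subunit that holds the ATP-splitting site, was at 12.42 and 11.99 with Ikaros and at 11.22 and 10.90 with 159A (1.15 ± 0.23, adjusted p = 0.0811). Replicate 1 was above replicate 2 in both groups by a like amount, and the groups did not overlap. The 48 h change of Atp6v1a was called with a 60% filter on low genes (limma, adjusted p = 0.0382) and with quantile normalization (adjusted p = 0.0415). It was also called as the mean of its probe sets (1.01, adjusted p = 0.0206). Together with Atp6v0d1 and Atp6v1h its estimates ranged from 0.68 to 1.19 at 48 h and from 0.02 to 0.18 at 6 h, all positive.

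Of the autophagy genes, Map1lc3b was called at 48 h and Sqstm1 at 6 h. Map1lc3b encodes LC3B, which is joined to lipid on the growing autophagosome. It was at 15.16 and 15.06 with Ikaros and at 14.01 and 13.87 with 159A (1.17 ± 0.09, 2.25-fold, adjusted p = 0.0273). Its other 3 probe sets at 48 h gave 1.58, 1.23 and 2.69. In the inducible line it was at 8.39, 8.73 and 8.51 at 6 h, at 8.53, 8.50 and 8.41 at 2 h, and at 8.29, 8.22 and 8.42 with vector, where replicate 1 of 6 h lay among the vector arrays (0.23 ± 0.09, adjusted p = 0.213).

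Sqstm1 encodes p62, the receptor that ties ubiquitin-marked cargo to LC3. It was at 9.68, 9.81 and 9.65 at 6 h, at 9.55, 9.60 and 9.48 at 2 h, and at 9.44, 9.32 and 9.35 with vector. The 3 groups did not overlap, and the change was 0.17 ± 0.07 at 2 h (adjusted p = 0.313) and 0.34 ± 0.07 at 6 h (1.27-fold, adjusted p = 0.0187). The 6 h call was lost on leaving out replicate 1 of 6 h (adjusted p = 0.0560), replicate 2 of 6 h (adjusted p = 0.0511), vector replicate 2 (adjusted p = 0.0808) or vector replicate 3 (adjusted p = 0.0660). At 48 h Sqstm1 was at 10.15 and 10.44 with Ikaros and at 9.39 and 9.49 with 159A, apart but not called (0.85 ± 0.14, adjusted p = 0.0624). As the mean of its probe sets it changed by 0.48 and was called (limma, adjusted p = 0.0337). The stretch before its start (chr11:50210821-50211070, minus strand, GRCm38.p6, RefSeq) held 2 matches to GGGAA on either strand and 0 to CACGTG, and is shown as that of the fifth member called at 6 h.
Sqstm1: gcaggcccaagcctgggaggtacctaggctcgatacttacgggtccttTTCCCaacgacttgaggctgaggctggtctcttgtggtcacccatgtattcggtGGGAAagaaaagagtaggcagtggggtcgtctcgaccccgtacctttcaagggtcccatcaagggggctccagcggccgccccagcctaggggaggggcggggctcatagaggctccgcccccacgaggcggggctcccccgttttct

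Ulk1, the kinase that starts autophagy, was at 7.01, 7.18 and 7.02 at 2 h, at 6.97, 6.96 and 7.02 at 6 h, and at 6.87, 6.70 and 6.83 with vector. The vector arrays were the lowest, and the changes of 0.27 ± 0.07 at 2 h (adjusted p = 0.111) and 0.18 ± 0.07 at 6 h did not pass. At 48 h it was at 9.99 and 8.63 with Ikaros and at 8.66 and 7.86 with 159A, where the distance between replicates exceeded that between the lower Ikaros and the higher 159A array. Becn1, a subunit of the lipid kinase complex that acts after Ulk1, was at 13.67 and 13.04 with Ikaros and at 12.68 and 12.20 with 159A (0.91 ± 0.34, adjusted p = 0.201). Gabarapl1, Atg5, Atg7 and Wipi1 ranged from -0.36 to 0.38 at 48 h. Over the group, 7 of 8 estimates were positive at 48 h and 6 of 7 at 6 h.

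The 6 h and 48 h comparisons share no array, and 37 members were tested in both. Their signs were the same for 28 members, or 75.7%, against 63.2% of the 9246 genes tested on both types. Both estimates were positive for 24 members and negative for 4. Slc46a3 and Ap3m2 were called in both, 25% of the 8 members called at 48 h and 40% of the 5 called at 6 h. Both genes were chosen with their changes known, and no other member was called in both, so these shares do not measure agreement. Over all genes, 251 were called in both, 17.1% of the 48 h calls and 38.5% of the 6 h calls. For 11 members the Ikaros arrays lay above the control arrays in both designs, 29.7% of the members, as they did for 647 of the 9246 genes. These were Ap3m2, Atp6v1h, Ctsc, Ctss, Lamp2, Neu1, Psap, Slc46a3, Smpd1, Sqstm1 and Tpp1. This share too includes Slc46a3 and Ap3m2, chosen with their changes known. For Smpd1 at 48 h the lower Ikaros array, at 3.88, was barely above the higher 159A array, at 3.87. Sizes are not set side by side across the designs, because construct, time and array type all differ.

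**Figure D4:**
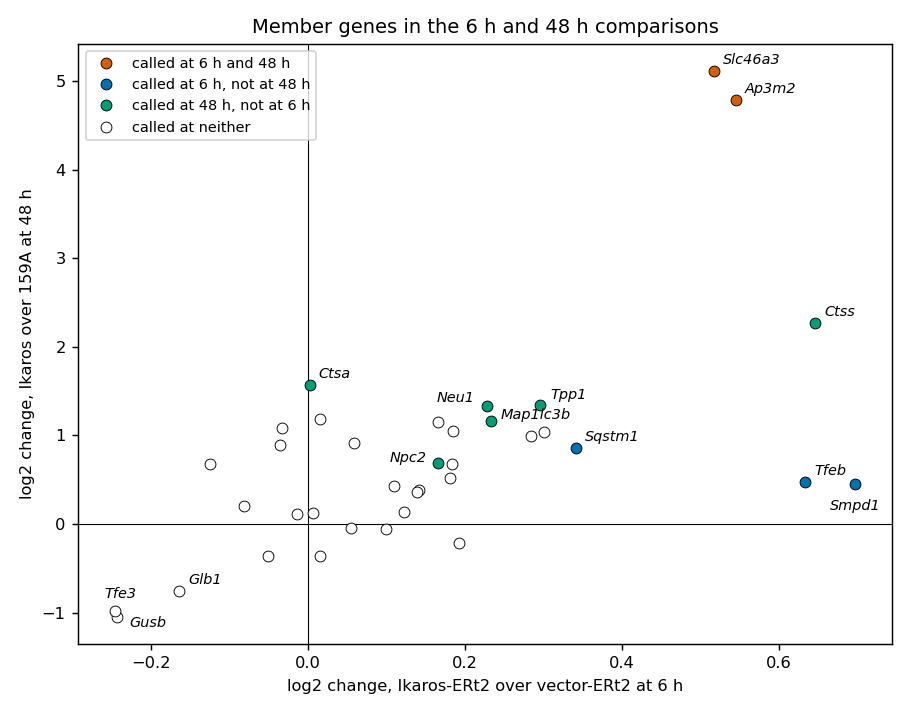
Log2 change at 6 h (x axis, Ikaros-ERt2 over vector-ERt2) against that at 48 h (y axis, Ikaros over 159A) for the 37 members tested in both; each point is a gene. Slc46a3 and Ap3m2, called in both, lie at the top, 24 members lie above 0 on both axes and 4 below 0 on both, Gusb, Glb1 and Tfe3 among them.

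The 48 h replicates differed in a way that ran through the members. Replicate 1 was above replicate 2 in both groups for 29 of 38 members, 76.3%, against 40.8% of all genes. It was below replicate 2 in both for 2 members, against 23.6% of all genes. Atp6v0d1 had a distance between replicates of 1.38 with Ikaros and 1.04 with 159A, and Ulk1 one of 1.36 and 0.80. Between same-numbered arrays the value was higher with Ikaros in both pairs for 28 members, 73.7%, against 36.9% of all genes. It was lower in both for 6 members, against 37.5% of all genes. Of the probe sets that were not used as the gene's main one and lay above the floor limit, all 11 of the called members had a positive 48 h change, from 0.06 to 2.96. Of 28 such probe sets of the other members 22 were positive, with a range of -1.35 to 2.94.

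Promoter windows from 250 bases before to 50 after the start were found for 35 of the 41 members in the RefSeq table. Ap3m2, Atp6v1h, Becn1, Ctsb, Ctsh and Npc1 had no entry. On either strand, CACGTG was in a window of 13 members, 37.1%, against 8.09% of 27025 genes. The longer GTCACGTG, which contains it, was in 9, or 25.7%, against 2.55%. GGGAA was in 25, or 71.4%, against 65.5%. Of the 11 members called in any comparison with a control, 10 had a window, of which 1 (Ctsa) held CACGTG and 6 held GGGAA. Of the 25 members with a window that were not called, 12 held CACGTG, among them Lamp1, Ctsd, Mcoln1, Glb1, Gla and Atp6v1a. Ctsl and Hexa, not tested on either type, are among the 25, and Ctsl is among the 12. Matches of letters were counted, and binding was not measured.

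Of 155 further genes of the lysosome, its sorting routes, autophagy and nutrient sensing, 136 were tested at 48 h, and 13 were higher and 3 lower. That is 11.8% called, against 14.8% of all genes, and 9.56% higher, against 6.38%. By list, 3 of 23 other hydrolases and activators, 2 of 17 other membrane proteins, 1 of 13 other pump subunits, 1 of 24 sorting genes, 3 of 37 other autophagy genes and 3 of 22 nutrient-sensing genes were higher. The 3 that were lower were 1 sorting, 1 autophagy and 1 nutrient-sensing gene. Wdfy3, a large scaffold protein for the removal of protein aggregates by autophagy, was at 10.82 and 10.25 with Ikaros and near the floor with 159A at 2.36 and 2.31, at least 162-fold higher. Gm2a, the activator that lifts ganglioside GM2 to its hydrolase, was at 8.62 and 8.06 against 5.17 and 5.35 (3.08 ± 0.25, adjusted p = 0.0284). Vps39, a subunit of the HOPS tether that joins vesicles to lysosomes, was at 9.39 and 9.70 against 7.12 and 7.46 (2.25 ± 0.20, adjusted p = 0.0304). Each of these 3 had Ikaros arrays far above both 159A arrays. Atg9b, a membrane protein of early autophagosomes, was at 4.47 and 4.38 against 7.34 and 6.67 (-2.58 ± 0.29). Deptor, an inhibitor of the kinase mTOR, was at 3.70 and 3.63 against 5.41 and 5.80 (-1.94 ± 0.17), and Gnptab, which makes the mannose 6-phosphate tag of lysosomal enzymes, fell by 0.92.

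In the inducible line 133 of these genes were tested. At 2 h, 0 were higher and 4 lower, 3.01% against 1.86% of all genes. They were Bnip3 and Bnip3l, which mark mitochondria for autophagy, the pump subunit Atp6v0a1 and Fnip2, a partner of folliculin. Bnip3 was at 8.52, 8.98 and 9.27 at 2 h, at 9.96, 10.58 and 10.52 at 6 h, and at 10.12, 10.41 and 10.26 with vector. It was low at 2 h and level with vector at 6 h (-1.34 ± 0.19 at 2 h, adjusted p = 0.00650, and 1.43 ± 0.19 from 2 h to 6 h, adjusted p = 0.0158). At 6 h, 3 of the 133 were higher and 1 lower, 3.01% against 5.78% of all genes, and 2.26% were higher against 2.58%. Ctns, the cystine exporter of the lysosome, changed by 0.35 ± 0.07 (adjusted p = 0.0176), Vps39 by 0.34 ± 0.08 (adjusted p = 0.0361) and the pump subunit Atp6v1c1 by 0.27 ± 0.06 (adjusted p = 0.0338). Vps39 was higher in both designs, as Slc46a3 and Ap3m2 were. Fnip2 was lower at both times, with a change of -0.56 ± 0.11 at 2 h (adjusted p = 0.0254) and of -0.66 ± 0.11 at 6 h (adjusted p = 0.00455).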

How the data were processed

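RNA from B3 cells was hybridised to 4 Mouse Genome 430 2.0 and 9 Gene 1.0 ST arrays. The authors deposited log2 values, 1 per probe set and array. Tools listed in the submitters' processing notes are affy, limma, GCRMA and RMA, with neither a version nor the array type each was used for. Each type has its own normalization, so comparisons stay within a type. Probe sets with 1 symbol in the platform annotation were used (34958 of 45101, and 21789 of 35556).

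The differences were fitted with limma 3.58.1 in R 4.3.3 (lmFit, eBayes, two-sided, Benjamini-Hochberg over all genes tested), the inducible ones in 1 fit of 9 arrays, after removing the 40% of genes with the lowest mean. Titles speak of biological replicates but do not name separate cultures, so the p-values reflect the spread of these samples alone, which may be technical. Precision is limited by the number of arrays. The fit was tested on simulated data. The members, lists, motifs and alternatives were chosen with earlier results of these data known. Named with values in every array were called members, up to 6 further members per comparison with the largest non-overlapping change, and Tfeb, Tfe3, Lamp1, Ctsd, Sqstm1 and Map1lc3b; of other genes, up to 3 called per direction. Deviations of same-numbered 2 h and vector arrays had r of 0.119, 0.128 and 0.235 over genes. Those numbered differently had r from -0.145 to 0.040. Between 6 h and 2 h, differently numbered arrays reached r = 0.339 and same-numbered ones went down to -0.258. These values do not show a pairing, and the labels do not state one. The fit used for the calls has no pairing, and p-values given for paired arrays are those of the replicate block. For same-numbered 6 h and vector arrays r ran from -0.096 to 0.106, though the block fit pairs the arrays of 6 h as well. A group counted as near the floor when within 1 log2 unit of the lowest value, and folds against it are given as bounds. Alternatives were other filters, scalings and probe set rules, eBayes with trend, the replicate block, each array left out, and members without Slc46a3 and Ap3m2, the last added after the data were seen.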

Additional observations from a re-analysis of the deposited data

Results flagged for a closer look

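The level of Slc46a3 and Ap3m2 differed between the exposure times of the inducible line, by a test of the difference itself (limma, 6 h against 2 h). The log2 change of Slc46a3 was 0.51 larger at 6 h than at 2 h (SE 0.09, adjusted p = 0.0300), and all 3 arrays of 6 h lay above all 3 arrays of 2 h. That of Ap3m2 was 0.41 larger (SE 0.08, adjusted p = 0.0356), again with 3 of 3 arrays above. Both genes were in the list with their changes known. The call was lost in 9 of 14 alternatives for Slc46a3 and in 11 of 15 for Ap3m2. With only the compared groups in the fit, 0 genes were called in all. No vector array of 2 h was used, so an effect of exposure time without Ikaros cannot be told apart.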

How the results depend on the processing

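In 197 alternatives for 15 gene results none changed sign, 109 kept their side of the threshold and 88 lost the call. At 48 h, against 8 members called, 12 were called with the mean of probe sets, 11 with quantile normalization (10 higher), 9 with a 60% filter and 9 after centring (8 higher each), 8 with trend and robust, 1 with no filter, 0 with every probe set tested and 0 with the replicate block, under which limma called 0 genes in all (4493 at an unadjusted p under 0.05), and 0 to 0 with an array left out, where the lone array is assumed to vary like the other group. At 2 h, against 0, 2 were called with a 60% filter, 2 with quantile normalization, 2 with the replicate block, 1 after centring arrays on their median, 1 with only the compared groups in the fit, and 0 to 1 with an array left out (Psap, without Ikaros-ERt2 replicate 3). At 6 h, against 5, 7 were called with quantile normalization, 6 with the replicate block, 3 with a 60% filter, 2 with every probe set tested, 3 without Slc46a3 and Ap3m2, and 3 to 5 with an array left out. Between 6 h and 2 h, against 2, 1 was called with a 60% filter, 1 with the replicate block, 0 with no filter, after centring, with every probe set tested, with only the compared groups in the fit and without Slc46a3 and Ap3m2, and 0 to 1 with an array left out. Of these counts of members, the replicate block left only that of 6 h within 1.5 times its size. At 48 h same-numbered deviations had r = 0.572, which with 2 pairs does not show a pairing. Apart from fewer genes or arrays in a fit, the cause of these shifts was not tested.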
